A study of Mus musculus with 2 samples.

Results

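Pericytes of the amputated mouse digit were examined in 2 single-cell RNA libraries, 1 of digits given an FGF8 bead and 1 of digits given a BSA bead. The cells were chosen by their own counts: a barcode needed a count of detected genes above 200 and below 7500, and under 15% mitochondrial UMIs (unique molecular identifiers, each counting 1 captured RNA molecule), at least 1 UMI in 3 or more of Rgs5, Kcnj8, Abcc9, Higd1b, Vtn and Notch3, more Rgs5 than Myh11 UMIs, and no Pecam1 UMI. The rule found 445 pericytes among 9967 filtered cells, 270 of 6715 with FGF8 and 175 of 3252 with BSA. All animals were neonatal ICR mice of both sexes whose hindlimb digits 2 and 4 were amputated through the middle phalanx (P2) at postnatal day 3. At day 7 a bead soaked in FGF8 at 500 ng/µl or in 0.1% BSA was placed at the wound, and the tissue distal to the P2 stump was collected 24 h later, at day 8. Each library is a pool of 20 digits from 5 mice, captured with 10x 3′ chemistry after the epithelium was removed and the tissue digested with Liberase for 4 h at 37 °C. A digit amputated through P2 and given BSA does not regenerate, and not every digit given FGF8 does. All digits of a treatment went into its pool, so the FGF8 library may hold digits of both outcomes.

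Pericytes are the mural cells of capillaries and small venules. They sit in the basement membrane that they share with the endothelium, are recruited through PDGF-B from endothelial cells acting on PDGFRB, and exchange angiopoietin, Notch, TGF-beta and VEGF signals with it. They are known for control of capillary tone and vessel stability and, in wounds and inflamed tissue, for secreting chemokines that guide leukocytes out of vessels. FGF8 is a secreted ligand of the FGF receptors, whose MAP kinase output is usually read through feedback genes such as the Dusp, Spry and Spred families.

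There was 1 library per condition, so no difference between FGF8 and BSA could be tested against replicates. Levels are given as CPM, the UMIs of a gene summed over the pericytes of a library and scaled to 1000000 UMIs of those cells, and differences as the log2 ratio of CPM, FGF8 over BSA, with an exact 95% interval that covers counting error only. The pericytes held 3809778 UMIs with FGF8 and 2929340 with BSA, with medians of 11809 and 15111 UMIs and of 3780 and 4334 genes per cell. The pools differed in sex. By their Xist UMIs against those of Uty, Kdm5d, Ddx3y and Eif2s3y on the Y chromosome, 57 pericytes were called female and 146 male with FGF8, against 116 and 37 with BSA, so that sex and treatment cannot be told apart in the pooled values. Both ratios are printed for each gene described with values whose female and male intervals did not overlap, and where only the pooled ratio is given the intervals overlapped, which does not show that the sexes were alike. The pooled ratios also include the cells of no called sex. A total of 6 barcode sequences occurred in both libraries, 1 of them a pericyte.

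RNA of other cell types was present and unequal. The 10 macrophage markers reached 390.0 CPM in FGF8 pericytes and 44.4 in BSA pericytes, the 6 neutrophil markers 239 against 19.1 and the 6 keratinocyte markers 192 against 40.6. Most of it sat in few cells: the 10 richest FGF8 pericytes held 91.2% of the macrophage marker UMIs. The results are therefore also given for the pericytes with no UMI of Pdgfra, Ptprc, Cdh5, Sox10 or Krt14, 207 with FGF8 and 149 with BSA, which are called single-identity pericytes here. The name refers to these genes only and does not show that such cells were free of other cells' RNA. In these the macrophage markers came to 36.4 and 19.1 CPM, the neutrophil markers to 18.2 and 4.34, and the keratinocyte markers to 69.5 and 35.6, still higher in the FGF8 library. The 6 mast cell markers went the other way, with 230 CPM in FGF8 and 532 in BSA pericytes, and 24.2 and 66.4 in single-identity cells. Of the 1559 mast cell marker UMIs of all BSA pericytes, 1354 sat in 1 cell. Red cell globins were also carried by few cells: 1 BSA pericyte held 23305 of the 25992 erythroid marker UMIs of its library, and the median ratio of the erythroid markers was −0.94 over all pericytes and 2.16 in single-identity cells. Among single-identity cells the erythroid markers came to 6752 CPM in FGF8, with 8462 of 16711 UMIs in 1 cell, and to 1127.5 CPM in BSA. In every comparison the part of this foreign RNA in the result was not tested beyond these values.

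Pericytes made up 4.02% of filtered cells in the FGF8 library (95% Clopper-Pearson interval 3.56 to 4.52) and 5.38% in the BSA library (4.63 to 6.21). The shares count captured cells, and how readily pericytes were released by digestion in each pool is unknown. All 6 rule markers were present in 86 FGF8 and 80 BSA members, and exactly 3 in 42 and 19. At the edge of the rule, members with exactly 3 markers had a median of 13 Rgs5 UMIs in FGF8 and 34 in BSA, whereas the 72 and 34 cells that met the other conditions with exactly 2 markers had a median of 1 in both libraries. Of the filtered cells with 3 or more markers, 20 FGF8 and 17 BSA cells were lost to a Pecam1 UMI. These counts come from the values that chose the cells and describe the choice.

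Rgs5, a regulator of G-protein signaling, was the most abundant of the markers (chromosome 1, 169483036 to 169524887 on GRCm39, plus strand). It had 16173 UMIs in FGF8 pericytes and 18439 in BSA pericytes, or 4245 and 6295 CPM, a log2 ratio of −0.57 (−0.60 to −0.54). The median cell held 51 Rgs5 UMIs in FGF8, with quartiles of 28 and 83.8, and 86 in BSA, with quartiles of 40.5 and 146. The ratio was −0.66 among female-called and −0.70 among male-called pericytes. Because more Rgs5 makes a cell easier to include, these values describe the choice as well as the cells.

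The other markers of the rule were lower or close in the FGF8 library. Higd1b, a hypoxia-inducible mitochondrial protein gene, had 1348 UMIs against 1519 and a log2 ratio of −0.55, or −0.40 among female-called and −0.79 among male-called cells. Kcnj8 and Abcc9, which encode the pore and the regulatory subunit of the vascular KATP channel, had 1321 against 1209 and 1527 against 1259 UMIs, ratios of −0.25 and −0.10. Vtn, encoding the adhesive protein vitronectin, had 237 against 281 UMIs and a ratio of −0.62, and Notch3, the Notch receptor of mural cells, 1451 against 1214 and −0.12.

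**Figure D1:**
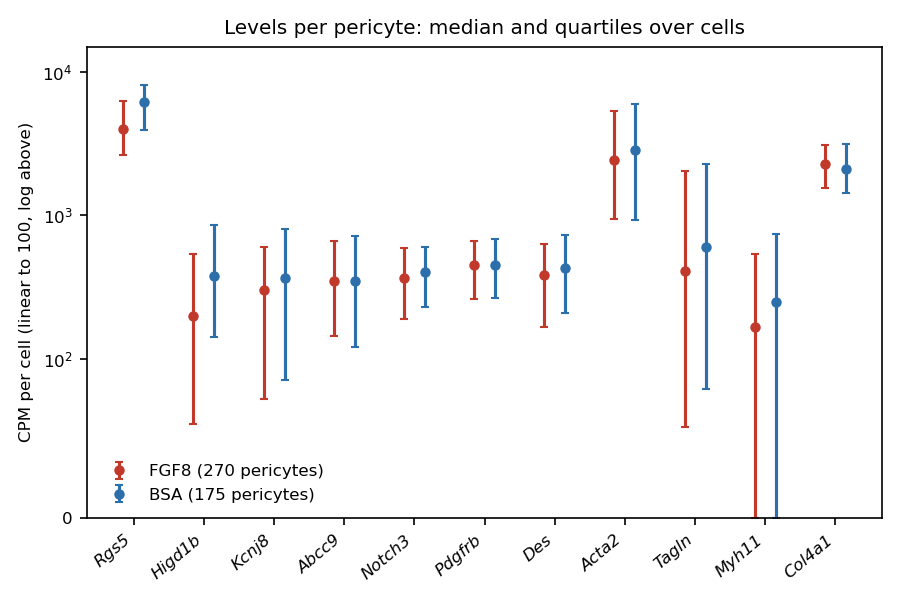
Level per pericyte of 5 rule markers and 6 other mural or matrix genes in CPM (vertical axis, linear to 100 and logarithmic above), with points for the median over cells and bars for the quartiles, in 270 FGF8 and 175 BSA pericytes. Rgs5 lies lower in FGF8 (median 4041 CPM) than in BSA (6224 CPM), Pdgfrb and Col4a1 lie side by side, and the FGF8 quartiles of Tagln are 57.0 and 2036 CPM.

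The label was set against genes outside the 6 rule markers. Of these, Myh11 and Pecam1 also entered the rule, as limits. Ranked by the smaller of the 2 libraries' ratios over all other filtered cells, among genes found in at least 50% of members, the 15 leading genes were Des, Irag1, Trpc6, Cyp4b1, Synpo2, Myh11, Aoc3, Sema5b, Cox4i2, Adra2a, Itga7, Gm13889, Rasl12, Lin7a and Septin4. Des, the muscle-type intermediate filament of mural cells, stood 7.33 log2 units over all other cells in FGF8 and 6.82 in BSA. Trpc6, a cation channel gene, stood 6.81 and 6.36 over them, and Adra2a, an adrenergic receptor gene, 5.52 and 5.96. Since the cells were chosen on co-expressed genes, this ranking is a description. Myh11, Synpo2 and Des also mark vascular smooth muscle, and 71.5% of FGF8 and 73.1% of BSA members held a Myh11 UMI. A rule for smooth muscle cells with more Myh11 than Rgs5 found only 7 and 5 cells, and the label pericyte therefore stands here for mural cells with more Rgs5 than Myh11, whether of capillaries or of larger vessels. Of the 10 endothelial markers, Esam, a junction protein that mural cells also carry, had 804 and 797 UMIs and Egfl7 47 and 24, while each of the others had 10 or fewer in either library. Pecam1 was absent by the rule.

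Over all 13608 genes with at least 10 UMIs in pericytes, the median log2 ratio was 0.03, and 53.0% of genes lay above 0. A total of 814 genes (5.98%) lay above 1, that is more than 2-fold higher in FGF8, and 403 (2.96%) lay below −1. In single-identity pericytes 12431 genes had 10 UMIs, of which 50.1% lay above 0, 608 (4.89%) above 1 and 346 (2.78%) below −1. Each list that follows is read against these shares.

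Apart from the markers of other cell types, secreted inflammatory signals were the list furthest above the background. Of 27 chemokine, cytokine and adhesion genes with 10 UMIs, 22 lay above 0 and 15 above 1, with a median of 1.25. In single-identity pericytes 18 of 22 lay above 0 and 12 above 1, with a median of 1.10. The median was 1.03 among female-called and 1.65 among male-called pericytes. The same list had a median of 0.70 in fibroblasts, 1.57 in Schwann cells and 0.10 in macrophages. No difference between cell types was tested.

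Within the list 2 chemokines had the most UMIs in FGF8 pericytes. Ccl2, which recruits monocytes through CCR2 (chromosome 11, 81926397 to 81928279 on GRCm39, plus strand), had 1005 UMIs in FGF8 pericytes and 156 in BSA pericytes, a log2 ratio of 2.31 (2.06 to 2.56), or 2.17 in single-identity cells. By called sex it was 1.71 (1.34 to 2.10) for females and 3.02 (2.44 to 3.68) for males. It was found in 48.1% of FGF8 and 26.9% of BSA members, and the richest FGF8 cell held 181 of the UMIs. Cxcl1, a neutrophil attractant (chromosome 5, 91039094 to 91040974), had 1321 against 427 UMIs, a ratio of 1.25 (1.09 to 1.41), in 55.6% and 35.4% of members. Its ratio was 1.43 among female-called and 1.80 among male-called cells, each above the pooled value. Ccl2 and Cxcl1 were more frequent in pericytes than in Schwann cells of the same library, where Ccl2 was found in 18.9% and 11.8% and Cxcl1 in 22.3% and 9.09% of cells. Schwann cells had median depths of 11886 and 16134 UMIs, close to those of pericytes, and are used here as the comparison for shares of cells with a UMI. How much of a share in either type came from RNA floating between droplets was not tested.

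Thinning every cell to 2000 UMIs kept the order. Ccl2 was then found in 21.4% of FGF8 and 6.36% of BSA pericytes and in 4.72% of FGF8 Schwann cells, and Cxcl1 in 25.2% and 13.3% of pericytes and in 6.01% of FGF8 Schwann cells.

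Il6, the interleukin of the acute phase response (chromosome 5, 30218112 to 30224979), had 384 UMIs against 124, a ratio of 1.25 (0.96 to 1.56) and of 1.31 in single-identity cells, while the share of cells with it was 38.1% in FGF8 and 33.7% in BSA, and 11.3% and 10.4% after thinning. Schwann cells had it in 3.36% of FGF8 cells and in 0 of 110 BSA cells, which allows a share of up to 2.73%. Icam1, the leukocyte adhesion receptor (chromosome 9, 20926672 to 20940113), had 359 against 111 UMIs and a ratio of 1.31 (1.00 to 1.64), in 31.9% and 30.3% of members, or 11.7% and 4.05% after thinning. The ratio of Il6 was 1.31 among female-called and 1.88 among male-called cells, and that of Icam1 was 2.19 and 1.14.

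Ccl7, a monocyte chemokine beside Ccl2 on chromosome 11, had 222 against 39 UMIs and a ratio of 2.13 (1.63 to 2.66), in 25.9% and 11.4% of members. Cxcl2, a neutrophil chemokine beside Cxcl1, had 458 against 16 UMIs and a ratio of 4.46 (3.74 to 5.28), but 1 FGF8 cell held 303 of them. In single-identity cells, without that cell, the ratio was 2.92 (2.09 to 3.88). Cxcl5, with 316 against 64 UMIs, was found in 17.8% and 2.86% of pericytes and in 18.5% and 1.82% of Schwann cells, so that its shares lay close to those of Schwann cells.

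Not all of the list lay higher. Il34, a ligand of the CSF1 receptor and the lowest member with 30 UMIs, had 589 UMIs in FGF8 against 603 in BSA, a ratio of −0.41 (−0.58 to −0.25). Ccl11, the eosinophil chemokine and the listed gene with the highest CPM in BSA pericytes, had 885 against 790 and a ratio of −0.22 over all pericytes, −1.12 among female-called and 0.17 among male-called cells. Cxcl12, which holds blood cells near vessels, had 456 against 423 and a ratio of −0.27, but 0.35 among female-called and 0.42 among male-called cells. Vcam1, another adhesion receptor, had 192 against 120 and a ratio of 0.30.

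**Figure D2:**
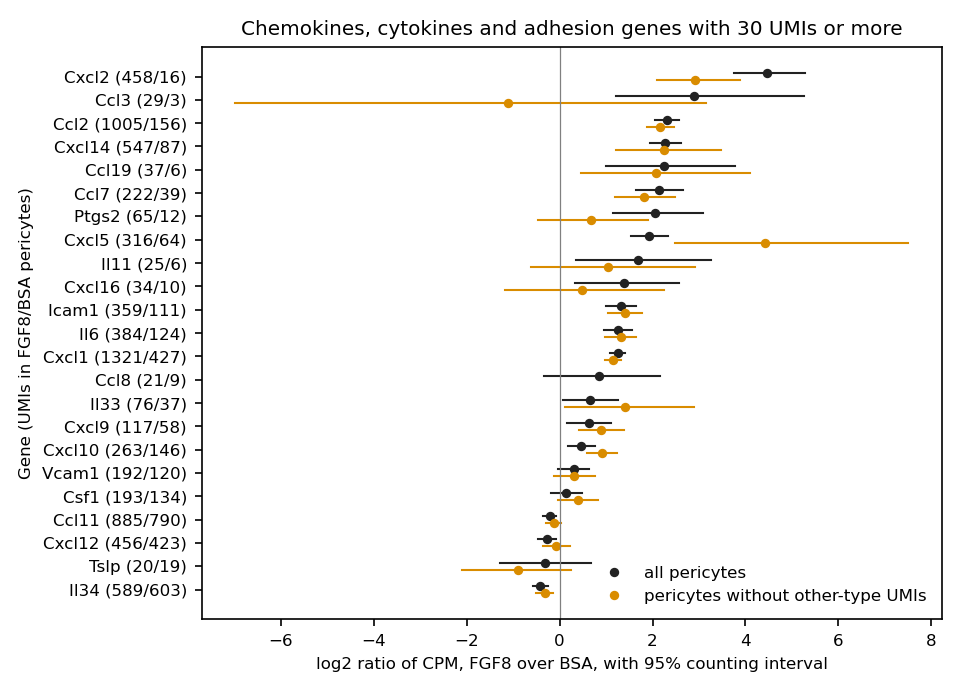
Log2 ratio of CPM, FGF8 over BSA, of the listed chemokine, cytokine and adhesion genes with 30 UMIs or more, with 95% counting intervals as bars, in all pericytes (black) and in single-identity pericytes (orange, drawn where both libraries held a UMI). The ratios of Ccl2, Ccl7, Cxcl1, Il6 and Icam1 keep close to their values when cells with other types' genes are left out, whereas Cxcl2 moves from 4.46 to 2.92 and Ccl3, counted with 29 and 3 UMIs, crosses 0.

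The bases before the start of 3 of these genes are shown because they hold a kappaB motif, the letters bound by NF-kappaB, the factor family known to drive cytokine genes. The search covered the 250 bases before each start in the RefSeq promoter table (GRCm38.p6), on both strands, for the 10-base kappaB consensus, which is close to its own reverse complement so that 1 site can match on both strands. It was found in 7.25% of 32851 promoters, in 10.8% of the 10374 genes with 10 UMIs in pericytes and a promoter in the table, and in 6 of 17 listed genes (35.3%): Cxcl1, Cxcl2, Cxcl10, Ccl9, Il6 and Csf1. Of the 10 listed genes with a promoter and a ratio above 1, 4 held it. Icam1 held no match, and Ccl2, Ccl7 and Cxcl5 had no promoter in the table and were not searched. The last 120 bases before the start are printed 5′ to 3′ on the gene's plus strand, with the match in capitals, for Cxcl1 (chr5:90891125-90891244), Cxcl2 (chr5:90903779-90903898) and Il6 (chr5:30012994-30013113).
Cxcl1: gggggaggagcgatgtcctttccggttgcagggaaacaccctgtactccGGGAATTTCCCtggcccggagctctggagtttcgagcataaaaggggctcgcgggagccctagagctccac
Cxcl2: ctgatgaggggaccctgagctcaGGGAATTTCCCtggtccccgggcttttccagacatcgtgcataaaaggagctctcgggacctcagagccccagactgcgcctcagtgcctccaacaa
Il6: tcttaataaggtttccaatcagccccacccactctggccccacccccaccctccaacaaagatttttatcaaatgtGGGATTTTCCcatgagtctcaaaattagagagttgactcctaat
The matches begin 71 bases before the start in Cxcl1, 97 in Cxcl2 and 44 in Il6, and Cxcl1 and Cxcl2 hold the same 11 letters. A match describes the letters and does not show binding.

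Genes of division, above all of G2/M, also lay above the background. Of 54 G2/M genes, 53 lay above 0 and 18 above 1, with a median of 0.80, and in single-identity pericytes again 53 lay above 0 and 11 above 1, with a median of 0.65. For S phase, 39 of 43 genes lay above 0 around a median of 0.32, and 31 of 43 around 0.17 in single-identity cells. Chaf1b, a histone chaperone gene, had the highest S phase ratio, with 129 against 48 UMIs and 1.05 (0.56 to 1.56). Top2a, the topoisomerase that untangles replicated DNA, had 761 UMIs in FGF8 pericytes against 284 in BSA pericytes, a ratio of 1.04 (0.84 to 1.25), with 1.42 for female-called and 0.56 for male-called cells. Aurka, a spindle kinase gene, had the highest ratio of the list, with 94 against 20 UMIs and 1.85 (1.15 to 2.63), and Hmgb2, a chromatin protein, the highest level, with 1582 against 772 and 0.66 (0.53 to 0.78), or 0.86 and 0.23 by sex in the same order.

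The G2/M median was 1.15 among female-called and 0.37 among male-called pericytes. Mki67, the usual proliferation marker, had 486 against 203 UMIs and a ratio of 0.88, but 1.96 among female-called and −0.19 among male-called cells, and the S phase median among male-called cells was −0.04.

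At the level of cells, 33 of 270 FGF8 pericytes (12.2%, interval 8.57 to 16.7) and 11 of 175 BSA pericytes (6.29%, 3.18 to 11.0) had more than 1% of their UMIs in G2/M genes. After thinning to 2000 UMIs, Mki67 or Top2a was found in 71 of 266 FGF8 pericytes (26.7%, 21.5 to 32.4) and in 19 of 173 BSA pericytes (11.0%, 6.74 to 16.6). The 27 FGF8 pericytes with most G2/M UMIs held 56.0% of them, and the 18 richest BSA pericytes 60.8%, so the transcripts came from a minority of members in both libraries. Schwann cells stood at 22.8% and 24.3% by the same measure, with overlapping intervals, fibroblasts at 25.6% and 10.3% and macrophages at 19.8% and 6.43%.

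**Figure D3:**
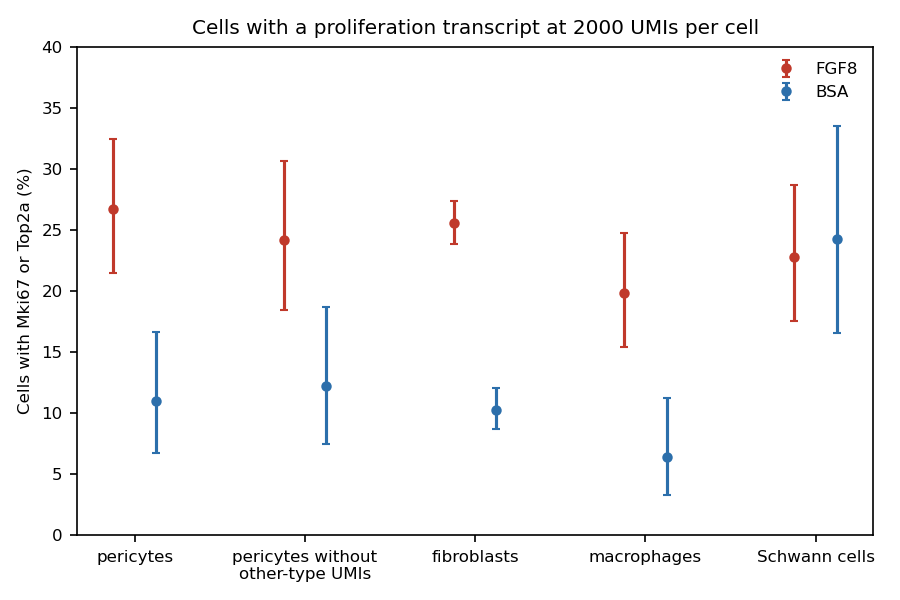
Percentage of cells with at least 1 UMI of Mki67 or Top2a after every cell was thinned to 2000 UMIs, by cell type, in the FGF8 (red) and BSA (blue) library, with 95% Clopper-Pearson intervals as bars. The intervals of the libraries lie apart for all pericytes (26.7% and 11.0%), fibroblasts and macrophages, and overlap narrowly for single-identity pericytes (24.1%, 18.4 to 30.6, and 12.2%, 7.42 to 18.7) and widely for Schwann cells.

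The usual transcriptional readout of FGF signaling lay near 0 in pericytes. The 18 feedback and Ets genes with 10 UMIs had a median of −0.05, with 8 above 0 and 2 above 1, and −0.14 in single-identity cells, but 0.24 among female-called and 0.03 among male-called pericytes. The same list had a median of 0.49 in fibroblasts. Dusp6, a phosphatase of ERK, had 63 against 43 UMIs and 0.17 (−0.41 to 0.77), Spry1 399 against 346 and −0.17, Spry4 266 against 229 and −0.16, Spred1 441 against 359 and −0.08, and Etv5 52 against 45 and −0.17. The pooled Dusp6 ratio lay below those of female-called (0.42) and male-called (0.69) pericytes, whose intervals included 0. That of Spred1 lay above them (−0.20 and −0.15). Dusp6 had a ratio of 0.90 in fibroblasts. Phlda1, the best-counted member, had 1644 against 1101 UMIs and 0.20 (0.09 to 0.31), against 1.20 in fibroblasts, and Ccnd1, encoding cyclin D1, 953 against 795 and −0.12, against 1.59 in fibroblasts.

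A few members had higher ratios. Fgfbp3, a carrier of secreted FGFs and the highest with 30 UMIs, had 27 against 8 UMIs and 1.38 (0.20 to 2.72), but −0.62 after thinning. Ier3, an immediate early survival gene, had 935 against 418 UMIs and a ratio of 0.78, or 1.01 among female-called and 1.06 among male-called cells. Dusp5, a nuclear ERK phosphatase, had 43 against 13 UMIs and 1.35 (0.42 to 2.37), but −0.04 after thinning.

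The receptors were sparse. Fgfr1 had 141 UMIs in FGF8 and 92 in BSA, a ratio of 0.24 (−0.15 to 0.63). That ratio was 0.71 (−0.12 to 1.51) among female-called and 0.71 (−0.10 to 1.62) among male-called cells, both above the pooled value. Fgfr2 had 246 against 207 UMIs, in 47.4% and 57.1% of members, a ratio of −0.13 (−0.40 to 0.14). Schwann cells had Fgfr2 in 55.9% and 60.9% of cells, so neither share in pericytes lay above that of this comparison type. Fgfr3 had 7 and 3 UMIs, too few for a ratio, and Fgfr4, the lowest of its list, 11 and 20, with −1.24 (−2.45 to −0.11) over all members but 0.07 in single-identity cells. Of the heparan sulphate carriers that present FGFs to their receptors, Sdc4 had 210 against 74 UMIs and 1.13 (0.74 to 1.53), whereas Gpc6 had 604 against 607 and −0.39 and Gpc3 394 against 464 and −0.62. The whole list of 13 had a median of −0.08, with 1 member above 1 and 1 below −1.

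Most of the well-counted signals between pericytes and endothelium differed little between libraries. Pdgfrb, the receptor that anchors pericytes to vessels, had 1699 against 1334 UMIs and a ratio of −0.03 (−0.13 to 0.07). Its ligand gene Pdgfb stood at 141 CPM in FGF8 and 127 CPM in BSA endothelial cells, with 259 and 111 UMIs. Angpt1, the vessel-stabilizing ligand of TIE2, had 534 against 451 UMIs in pericytes and −0.14 (−0.32 to 0.05), and Angpt2, its antagonist, 247 against 229 and −0.27 (−0.54 to −0.00). Pdgfa, which acts on mesenchymal cells through PDGFRA, had 1217 against 815 and 0.20 (0.07 to 0.33). Pdgfc, another PDGFRA ligand, was the highest with 46 against 19 UMIs and 0.90 (0.10 to 1.75), but −0.10 in single-identity cells, where 8 UMIs remained in each library. Of the 10 PDGF and angiopoietin genes with 10 UMIs, 6 lay above 0 and none past 1 in either direction, with a median of 0.13, and 4 of 9 lay above 0 in single-identity cells, with a median of −0.04.

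Receptors for VEGF and semaphorins differed among themselves. Nrp1 and Nrp2, the neuropilin coreceptors, had 563 against 300 UMIs and 0.53 (0.32 to 0.74), and 280 against 138 and 0.64 (0.34 to 0.95). The ratio of Nrp2 was −0.22 among female-called and 0.92 among male-called pericytes. Flt1, VEGF receptor 1, which mural cells carry as well as endothelium, had 757 against 646 and −0.15 (−0.30 to 0.00). Vegfc, a lymphatic growth factor, was the lowest, with 20 against 37 UMIs and −1.27 (−2.13 to −0.44). The 8 genes of the list had a median of 0.03.

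Notch genes leaned lower, with 3 of 11 above 0 and a median of −0.24, and −0.31 in single-identity cells. Jag1, a ligand that mural cells also display, had 306 against 288 UMIs and −0.29 (−0.53 to −0.05), Notch2 113 against 111 and −0.35 (−0.74 to 0.04), and the target Hes1 602 against 427 and 0.12 (−0.07 to 0.30). Nrarp, a feedback gene of the pathway, was the highest with 512 against 324 and 0.28 (0.08 to 0.49). In the TGF-beta and BMP list 12 of 18 lay above 0 with a median of 0.10, against 8 of 18 in single-identity cells with −0.03. Id3, a BMP target, had 2047 against 1129 UMIs and 0.48 (0.37 to 0.58), while Id4 had 742 against 827 and −0.54 (−0.68 to −0.39), from −0.64 among female-called to 0.13 among male-called cells. Inhba, the activin A subunit, had 230 against 63 and 1.49, of which 1 FGF8 cell held 98 UMIs, and 0.53 in single-identity cells. Its ratio was 0.90 for female-called and 3.24 for male-called cells.

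Contractile genes were slightly lower in the FGF8 library. Of 20 with 10 UMIs, 4 lay above 0 and none past 1 in either direction, with a median of −0.20, and −0.23 with 6 above 0 in single-identity cells. Acta2, smooth muscle actin, had 15520 against 15297 UMIs and a ratio of −0.36 (−0.39 to −0.33). Myl9, the regulatory myosin light chain, had 6018 against 6630 and −0.52 (−0.57 to −0.47), and Myh11, the smooth muscle myosin heavy chain used by the rule, 1585 against 1760 and −0.53, or −0.60 for female-called and −0.10 for male-called cells. Smtn, smoothelin, was the highest with 106 against 69 and 0.24 (−0.21 to 0.70). The list did not keep this direction in every subset: its median was −0.19 among female-called but 0.03 among male-called pericytes. Tagln, encoding the actin-binding protein SM22, had 7179 against 6388 and −0.21, but 0.01 among female-called and again among male-called cells, so the pooled difference was not seen within either sex. Des had 1784 against 1353 and 0.02 (−0.08 to 0.12), with −0.31 for female-called and 0.06 for male-called cells.

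Within each library Acta2 and Tagln spread widely among pericytes, whereas the quartiles of Des were close to those of the rule marker Abcc9. Acta2 ran from 0 to 705 UMIs per cell in FGF8, with a median of 30 and quartiles of 9 and 76.5, and from 0 to 685 in BSA, with a median of 36 and quartiles of 11.5 and 94. Tagln had medians of 5 and 7 UMIs and reached 432 and 345 UMIs in the richest cell. The FGF8 quartiles were 2 and 9 UMIs for Des and 2 and 8.75 for Abcc9.

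The 20 pericyte markers that the rule did not use leaned the same way as those it used, with 4 above 0, none past 1 and a median of −0.14, and −0.10 in single-identity cells. Ebf1, a transcription factor of mural and adipocyte lineages, had 7872 against 6917 UMIs and −0.19 (−0.24 to −0.15). Ndufa4l2 and Cox4i2, hypoxia-linked subunits of the respiratory chain that mark mural cells, had 4343 against 3703 and −0.15, and 3333 against 3263 and −0.35. Gjc1, connexin 45, had 2186 against 1561 and 0.11 (0.01 to 0.20), P2ry14, a nucleotide receptor gene, was the highest with 65 against 40 and 0.32 (−0.27 to 0.93), and Itga7, a laminin receptor, was the lowest with 334 against 368 and −0.52.

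The basement membrane program was nearly level. Of its 17 genes 6 lay above 0 and none past 1, with a median of −0.06, and 0.00 in single-identity cells. Col4a1 and Col4a2, the chains of type IV collagen, had 8683 against 6564 UMIs and 0.02 (−0.02 to 0.07), and 4381 against 3563 and −0.08. Sparc, a collagen-binding matrix protein and the best-counted member, had 19317 against 16440 and −0.15, but 0.04 in single-identity cells. Lamb1 was the highest of the well-counted members with 477 against 307 and 0.26 (0.05 to 0.47), but −0.25 among male-called cells. Fibroblasts had a median of −0.41 for this list.

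Interstitial matrix genes had a median of 0.03 over 23 genes, 13 of them above 0. Tnc, tenascin C, which is laid down at wounds, was the highest with 454 UMIs in FGF8 against 171 in BSA and 1.03 (0.77 to 1.29), in 47.8% and 29.1% of members, with 0.54 for female-called and 1.64 for male-called cells. Schwann cells had it in 77.3% and 82.7%, with a ratio of −0.04. Col1a1 was the lowest with 6622 against 7338 and −0.53, and −0.14 in single-identity cells. The 10 fibroblast markers, Col1a1 among them, summed to 3216 CPM in FGF8 and 4135 in BSA pericytes, and to 1722 and 1415 in single-identity cells, and their part in the matrix values was not tested. Timp1, a metalloprotease inhibitor, had 1556 against 484 and 1.31 (1.16 to 1.46), or 0.93 in single-identity cells, and was found in 79.3% and 70.3% of pericytes and, after thinning, in 36.5% and 21.4% of pericytes against 24.9% and 8.41% of Schwann cells. The Timp1 ratio was 0.95 among female-called and 1.03 among male-called cells, each below the pooled value.

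**Figure D4:**
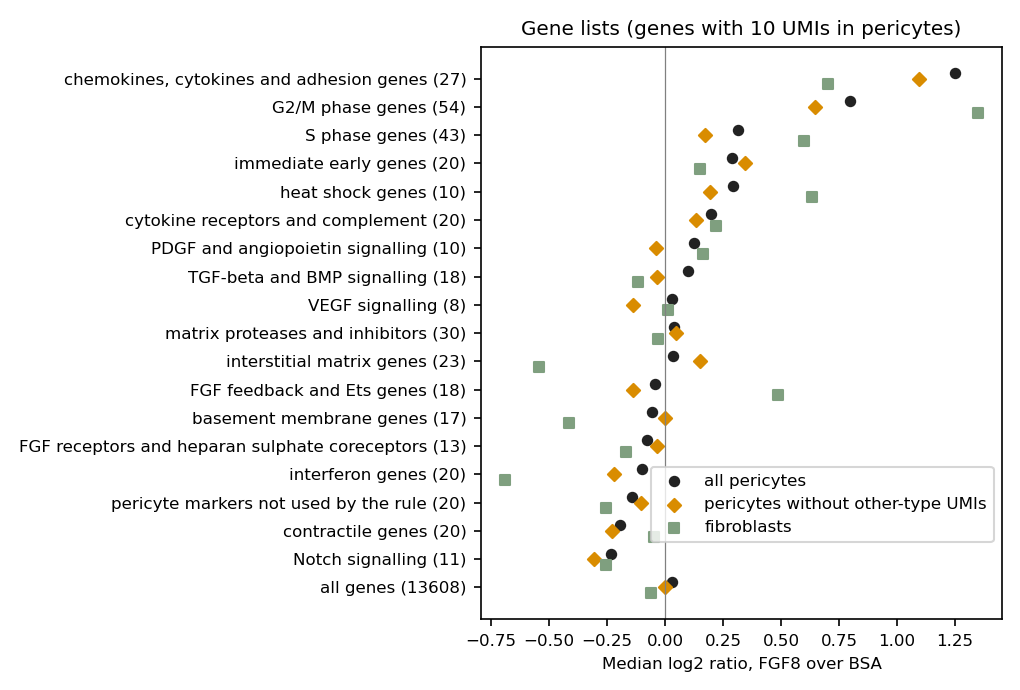
Median log2 ratio, FGF8 over BSA, of each gene list (number of genes with 10 UMIs in pericytes in brackets) in all pericytes (black circles), single-identity pericytes (orange diamonds) and fibroblasts (green squares). Cytokines (1.25) and G2/M genes (0.80) lie furthest above all genes (0.03), FGF feedback genes lie at −0.05 in pericytes and 0.49 in fibroblasts, and contractile and Notch genes lie below 0 in pericytes.

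Genes of the immediate early and heat shock responses, which tissue digestion is also known to induce, also lay above 0 for the most part. Of 20 immediate early genes 19 lay above 0 and 2 above 1, with a median of 0.29 and 0.34 in single-identity cells. The median was 0.60 among female-called and 0.69 among male-called cells, both above the pooled value. Jun had 2191 against 1323 UMIs and 0.35, with 0.75 and 0.82 by sex, and Fos 1481 against 972 and 0.23, with 0.78 and 0.88. Junb had 2315 against 1298 and 0.46. Fosl1 was the highest of those with 30 UMIs, with 58 against 18 and 1.31 (0.52 to 2.16), but −0.26 in single-identity cells. Of 10 heat shock genes 8 lay above 0 with a median of 0.29. Hsp90aa1 was the highest with 1267 against 689 and 0.50, and Hspb1, the small heat shock protein of contractile cells, the lowest with 513 against 677 and −0.78 (−0.95 to −0.61), which was −1.11 for female-called and −0.13 (−0.44 to 0.20) for male-called cells. The share of these transcripts that arose during the digestion was not tested.

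Interferon genes leaned lower, with 6 of 20 above 0 and a median of −0.10, and 3 of 20 with −0.22 in single-identity cells. Their median was −0.53 among female-called and −0.07 among male-called cells, −0.27 with equal weight of cells and −0.25 after thinning. Rtp4 was the lowest with 148 against 179 UMIs and −0.65, and Ifit1 the highest with 98 against 49 and 0.62 (0.11 to 1.15). Receptors and complement genes had 14 of 20 above 0 and a median of 0.20, from Ackr3, a scavenger receptor for CXCL12, with 62 against 91 UMIs and −0.93 (−1.42 to −0.45), to Tnfrsf11b, osteoprotegerin, with 59 against 7 and 2.70 (1.56 to 4.07), found in only 4.81% and 2.86% of members. Glycolysis and hypoxia genes had a median of 0.06 and 15 of 24 above 0. Bnip3, a hypoxia-induced mitophagy gene, was the highest with 40 against 13 and 1.24 (0.31 to 2.27), and Adm, adrenomedullin, the lowest with 41 against 70 and −1.15 (−1.74 to −0.57), but 0.31 in single-identity cells. Matrix proteases and inhibitors had a median of 0.04 over 30 genes, with 7 above 1. The joint lining list had a median of 0.21 over 11 genes.

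Ranked over all genes by the interval bound nearest 0, the 10 highest in FGF8 pericytes were Mmp3, Prg4, Cxcl2, Pf4, Spp1, Cstdc5, Lyz2, Stfa3, Krt1 and Hmga2. Several are defining genes of other cells. Lyz2 and Pf4, of macrophages and other myeloid cells, had 466 against 22 and 400 against 15 UMIs, with ratios of 4.03 and 4.36 that came to 1.22 and 1.35 in single-identity cells. The ratio of Lyz2 was 0.55 among female-called and 3.87 among male-called cells. That of Pf4 was 1.58 (−0.40 to 3.63) among female-called and 0.73 (−0.38 to 2.03) among male-called cells. These Pf4 values lay below the pooled ratio, and their intervals included 0. Krt1, a keratin of differentiated epidermis, had 200 against 16 UMIs, of which 1 FGF8 cell held 143. Hmga2, a chromatin protein of growing embryonic tissue, had 110 against 7.

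Genes of the joint and wound matrix were also among the highest, at shares close to those of Schwann cells. Spp1, osteopontin, had 412 against 16 UMIs and was found in 64.1% of FGF8 and 8.57% of BSA pericytes, and in 65.1% and 7.27% of Schwann cells. Prg4, lubricin, the lubricant of joint surfaces, had 344 against 9 UMIs, 99 of them in 1 FGF8 cell, in 38.9% and 4.57% of pericytes and 38.2% and 5.45% of Schwann cells. Mmp3, stromelysin, had 373 against 4 UMIs, of which 1 FGF8 cell held 246, and its ratio of 6.16 came to 3.99 in single-identity cells. It was found in 22.2% and 2.29% of pericytes and in 22.3% of FGF8 and 0 of 110 BSA Schwann cells. These shares lay close to those of Schwann cells in FGF8. As Schwann cells came from the same digits, this does not show whether pericytes expressed the genes, and the source of the transcripts was not tested.

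**Figure D5:**
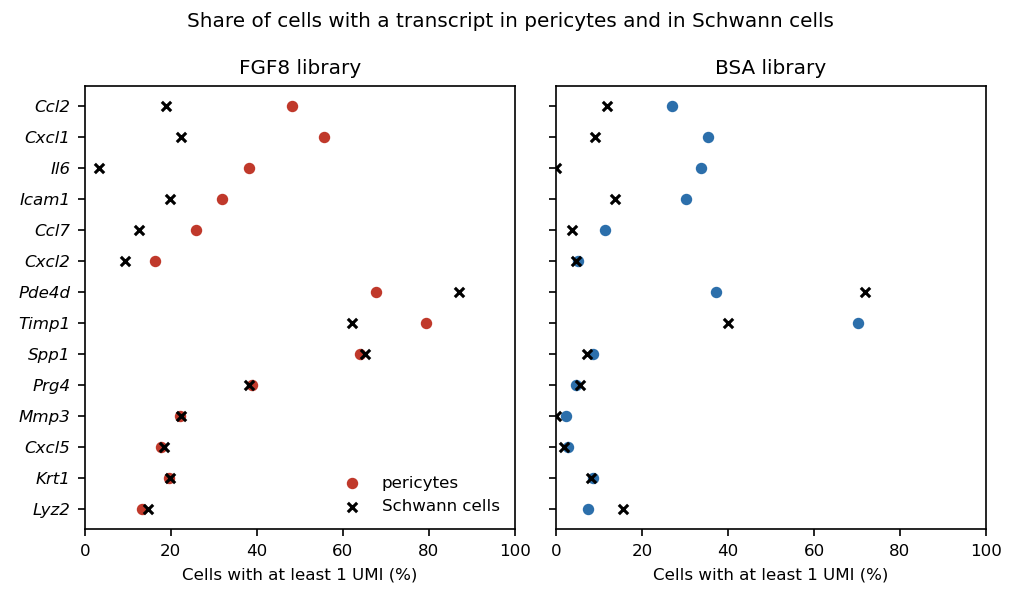
Percentage of cells with at least 1 UMI of 14 genes in pericytes (circles) and in Schwann cells (crosses), in the FGF8 library (left) and the BSA library (right), without thinning. Spp1, Prg4, Mmp3, Cxcl5, Krt1 and Lyz2 lie close to or below the Schwann values in FGF8, while Ccl2, Cxcl1, Il6 and Icam1 lie above them in both libraries.

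When the same ranking was run on single-identity pericytes, Pde4d, a cAMP phosphodiesterase gene (chromosome 13, 108586482 to 110092497), came second after Spp1. Globin genes of red cells held ranks 3, 4 and 9, and Prg4 and Mmp3 ranks 5 and 7, so this ranking also held genes of other cells. Pde4d had 1940 UMIs in FGF8 pericytes against 281 in BSA pericytes, a ratio of 2.41 (2.23 to 2.59) over all members and of 3.195 (2.91 to 3.49) in single-identity cells. It was found in 67.8% and 37.1% of members, or 42.1% and 12.7% after thinning, with ratios of 3.98 among female-called and 2.71 among male-called cells. Schwann cells also had more of it in the FGF8 library, with a ratio of 1.72, and fibroblasts 1.11.

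The 10 lowest over all pericytes were Gm57147, Adamts16, Qpct, Clec3b, Cdk8, Mustn1, Rrad, Ryr2, Ankra2 and Ctnna3. Of these, only Gm57147, Qpct and Cdk8 were also among the 10 lowest in single-identity cells. Clec3b is also among the listed fibroblast markers, and the part of fibroblast RNA in its ratio was not tested. Mustn1, a small gene of the musculoskeletal system, had 731 UMIs in FGF8 against 1031 in BSA and −0.88 (−1.01 to −0.74), and Rrad, a small GTPase of muscle and heart, 251 against 376 and −0.96 (−1.20 to −0.73). Adamts16, a secreted metalloprotease gene, had 51 against 114 and −1.54 (−2.05 to −1.05), and Ryr2, the calcium release channel, 58 against 98 and −1.14 (−1.63 to −0.65). Cdk8, a kinase of the Mediator complex, had 799 against 1226 and −0.997 (−1.13 to −0.87), or −1.26 for female-called and −0.67 for male-called cells, with −1.20 in fibroblasts and −0.83 in Schwann cells. Itga8 and Cdh6, adhesion genes that ranked low among single-identity cells, had 69 against 99 and 68 against 110 UMIs, with ratios there of −1.25 and −1.53.

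The study's own lists of genes higher and lower with FGF8 in fibroblasts were counted in pericytes. Of 241 genes of the higher list with 10 UMIs, 229 lay above 0 and 108 above 1, with a median of 0.88, and in single-identity cells 192 of 214 lay above 0 and 73 above 1, with 0.69. Of 54 genes of the lower list, 7 lay above 0 and 16 below −1, with a median of −0.69, and in single-identity cells 6 of 39 lay above 0 and 8 below −1, with −0.48. These lists were chosen on the same libraries, with the same pools and sexes, so the counts are not independent evidence of direction.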

How the data were processed

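The files are unnormalized UMI counts of 33696 genes in each called barcode, which the authors made from 10x 3′ v3.1 libraries with Cell Ranger 9.0.0 on a GRCm39 reference. Their processing notes also name mm10. The filters on genes and mitochondrial share were applied here. Counts were summed over the pericytes of each library and scaled to CPM in Python 3.11.15 with numpy 2.4.6 and scipy 1.17.1. Genes with 10 UMIs over both libraries were counted. A gene at 0 entered at a floor of 3 UMIs over the library's pericytes, which makes its ratio a bound. Intervals are exact at 95% and cover counting error only. No doublet caller was run: cells with a UMI of Pdgfra, Ptprc, Cdh5, Sox10 or Krt14 were left out in an alternative instead. With 1 library per condition no p-value was computed, so differences are described by size alone. The ratio code was tested on simulated library counts, which had no spread between cells, and the thinning code on the BSA pericytes themselves.

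Fibroblasts (2392 in FGF8, 1294 in BSA), blood endothelial cells (131, 67), macrophages (302, 175) and Schwann cells (238, 110) were taken by marker rules among the other filtered cells. Sex was called per cell by Xist against 4 Y-linked genes. Gene positions are those of GENCODE on GRCm39, matched by Ensembl ID, and promoters come from RefSeq on GRCm38.p6. Named genes were drawn from the rule's markers, the 15 leading genes, the 10 highest and 10 lowest genes (at least 50 UMIs, in at least 10% of cells of the higher library, same sign in both sexes, no sex genes), and in each list the 4 genes with the highest CPM and the highest and lowest ratio among members with 30 UMIs. Not every gene of these sets is printed. Outside this rule, Ccl3, Ccl7, Cxcl5, Cxcl12, Il6, Icam1, Vcam1, Dusp5, Dusp6, Spry1, Spry4, Etv5, Fgfr1, Fgfr2, Fgfr3, Mki67, Top2a, Pdgfb and, from a ranking added in single-identity cells, Pde4d, Cdh6 and Itga8 were named after their values were seen. The members, lists and rules were chosen with earlier results of these data known.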

Additional observations from a re-analysis of the deposited data

Results flagged for a closer look

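The FGF8 over BSA ratio had opposite signs, each with an interval that excluded 0, in pericytes and in fibroblasts for 9 of the genes with values in the text. Acta2 was at −0.36 in pericytes and 0.07 in fibroblasts, Hspb1 at −0.78 and 0.67, Lamb1 at 0.26 and −0.42, Nrp1 at 0.53 and −0.18, Nrp2 at 0.64 and −0.27, Ifit1 at 0.62 and −1.37, Ackr3 at −0.93 and 0.57, Adm at −1.15 and 0.22, and Lyz2 at 4.03 and −0.79. The difference between the cell types was not tested for any of them, since there was 1 library per condition. For Lamb1, Nrp2 and Adm the sign in pericytes turned in cells of 1 called sex, and that of Adm turned in single-identity cells as well. The Ifit1 ratio was 0.17 (−0.86 to 1.12) among female-called and 0.44 (−0.39 to 1.36) among male-called pericytes, with 0 inside each interval. The Hspb1 interval of male-called pericytes included 0, and the Lyz2 value came from few cells, with 94.2% of its UMIs in the 10 richest FGF8 pericytes.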

How the results depend on the processing

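The values rest on 1 library per condition, on pools of unlike sex and on sums in which few cells can hold most UMIs of a gene. The pericyte share of the FGF8 library, 4.02%, came to 4.90% with stricter cell filters, 3.395% with 4 or more markers, 5.09% with 2 or more, 2.80% after thinning, 3.08% without cells holding other types' genes, 2.93% when cells with 5 or more macrophage, neutrophil and keratinocyte marker UMIs were also left out (an alternative added after seeing the data), and 4.95% among female-called cells. The BSA share, 5.38%, came to 6.43% with 2 or more markers, 4.50% after thinning, 4.58% and 4.49% under the same exclusions, and 7.30% among male-called cells. It was above the FGF8 share in each of these. The count of genes below −1 rose from 403 to 732 among female-called cells alone. With at least 30 UMIs, 336 of 11194 genes (3%) lay above 1 and 123 (1.10%) below −1, against 5.98% and 2.96% of all 13608.

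Among list medians, that of immediate early genes, 0.29, came to 0.60 and 0.69 in the sexes called female and male, the G2/M value of 0.80 came to 1.15 among female-called and 0.37 among male-called cells, where the S phase median turned to −0.044. The contractile median of −0.20 came to −0.066 with equal weight of cells and turned to 0.033 among male-called cells. The study's higher list, 0.88, came to 0.79 without the 5% of cells with most UMIs, 0.69 and 0.73 under the 2 exclusions of mixed cells, 1.12 among female-called and 0.59 among male-called cells, and its lower list, −0.69, to −0.42 with stricter filters. The erythroid median of −0.94 turned to 2.03 with stricter filters, 0.68 with equal weight of cells, 2.07 without the 5% of cells with most UMIs, and 2.16 and 2.23 under the exclusions. The medians of the cytokine, FGF feedback, basement membrane and unused pericyte marker lists stayed, under every alternative run, within the order-statistic interval of the main median over genes.

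Single genes that changed sign were Tagln, at 0.008 among female-called and 0.014 among male-called cells, Sparc, at 0.037 and 0.047 under the exclusions, Lamb1 at −0.25, Id4 at 0.13, Mki67 at −0.19 and Ccl11 at 0.17 among male-called cells, Ccl11 also at 0.014 with equal weight of cells, Nrp2 at −0.015 after thinning and −0.22 among female-called cells, Dusp5 at −0.036 and Fgfbp3 at −0.62 after thinning, Pdgfc at −0.10 and −0.046 under the exclusions and −1.49 among female-called cells, Adm at 0.31 and 0.22 under the exclusions and 0.093 among female-called cells, Fgfr4 at 0.067 without cells holding other types' genes and 0.99 among female-called cells, Fosl1 at −0.055 with stricter filters, −0.62 after thinning, −0.026 without the 5% of cells with most UMIs and −0.26 and −0.37 under the exclusions, and Cxcl12 at 0.022 with stricter filters, 0.35 among female-called and 0.42 among male-called cells. The cause was not tested for any of these. No other ratio of a named gene called by its interval changed sign. No paired analysis was possible because each condition is a single library.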
